A study of Mus musculus with 66 samples.

Results

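The genes described here are the zinc finger factors whose symbols begin with Zfp, Zscan, Zkscan, Zbtb, Zic or Klf, taken from every probe that carried a single gene symbol on the B filter, which is 1 of a pair of cDNA filters used in the study. Probes of a gene were averaged, and no filter on signal was applied. This gave 84 genes on 93 probes, out of 4209 named genes and 7782 features in all (the named genes, plus each remaining probe by itself). Of the 84 genes, 68 had the prefix Zfp, 7 Zbtb, 4 Klf, 3 Zkscan and 2 Zscan, whereas 0 had the prefix Zic. A further 4 probes with these prefixes carried several symbols and were left out.

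Cerebellum was taken from 66 C57BL/6 mice (35 females and 31 males), and the total RNA of each mouse was hybridized to a filter of its own. Mice fed ad libitum (AL) were 17-21 days (5 mice), 33-44 days (5 mice), about 6 months (10 mice), 16 months (10 mice) or 24 months old (9 mice). Mice on caloric restriction (CR) were about 6 months (9 mice), 16 months (10 mice) or 24 months old (8 mice). They had received full regular feed for 13 weeks and then fortified feed, at 90% and 75% of the full ration for 1 week each and at 60% from then on. No genotype beyond the strain was given for any group, and the arrays of a group were biological replicates. The restricted males of the oldest cohort were all 673 days old, while the other mice of that cohort were 703 to 743 days old, so diet and age cannot be told apart for these males. Because whole cerebellum was used, fewer cells of a type and less RNA per cell cannot be told apart either.

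C2H2 zinc finger proteins carry arrays of short fingers, each held by a zinc ion, that read a few bases of DNA, and they form the largest class of transcription factors in mammals. Many Zfp genes also encode a KRAB domain, which recruits the corepressor Trim28 and the histone methyltransferase Setdb1 to silence chromatin. Zbtb proteins carry a BTB domain that pairs them and binds corepressors, Zscan and Zkscan proteins carry a SCAN domain for pairing with each other, and Klf proteins bind GC-rich boxes and CACCC sites in promoters. In cerebellum the Zic genes are known for their role in granule neurons, and Zscan21 for promoting the proliferation of granule cell precursors. The prefix does not make a gene a transcription factor: Zfp598 is a ubiquitin ligase of stalled ribosomes and Zfp451 a SUMO ligase.

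The promoters of 3 genes are shown, since these were the genes that passed the thresholds of the study in at least 1 comparison (given further on). Each line is the sequence of 250 bases upstream of the start of the gene, from RefSeq on GRCm38.p6, read 5′ to 3′ on the strand of the gene. Capitals mark GC boxes, the sequence GGGCGG on either strand, a motif that Sp and Klf factors are known to bind.
Klf13, chr7:63938916-63939165, minus strand: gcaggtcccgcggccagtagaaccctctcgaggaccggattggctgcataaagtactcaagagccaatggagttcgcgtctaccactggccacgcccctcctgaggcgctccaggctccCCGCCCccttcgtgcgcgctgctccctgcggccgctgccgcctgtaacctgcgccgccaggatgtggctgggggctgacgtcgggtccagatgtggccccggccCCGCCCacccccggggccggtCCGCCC
Zkscan17, chr11:59506641-59506890, minus strand: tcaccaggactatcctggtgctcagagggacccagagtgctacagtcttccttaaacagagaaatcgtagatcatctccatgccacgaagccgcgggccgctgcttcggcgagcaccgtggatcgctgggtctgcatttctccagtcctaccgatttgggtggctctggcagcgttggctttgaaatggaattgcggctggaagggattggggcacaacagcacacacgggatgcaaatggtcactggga
Zfp952, chr17:32992889-32993138, plus strand: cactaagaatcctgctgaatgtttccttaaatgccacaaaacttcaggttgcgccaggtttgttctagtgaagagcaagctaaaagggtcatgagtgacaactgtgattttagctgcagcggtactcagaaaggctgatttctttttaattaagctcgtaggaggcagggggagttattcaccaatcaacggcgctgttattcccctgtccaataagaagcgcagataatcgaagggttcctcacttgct
The Klf13 promoter held 3 GC boxes at a GC content of 71.6%, and the other two held 0, at 56.4% for Zkscan17 and 44.8% for Zfp952. Of the 68 zinc finger genes with a promoter in the table, 38 (55.9%) held a GC box, against 61.9% of the 3430 genes of the filter and 32.9% of 27025 genes in all. A match describes the letters in this window and is not a measured site. Of the 84 genes, 17 formed 9 pairs with at most 4 protein-coding genes in between. Zfp952 and Zfp763, Zkscan1 and Zscan21, and Zfp445 and Zkscan7 had 0 protein-coding genes between them.

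The unit throughout is the Z score, the distance of a probe from the mean of its array in SDs of that array. A difference of Z scores is therefore in Z units and is not a fold change. The level of a probe orders its signal on the array, but does not give the amount of its transcript relative to that of another gene. Of the 66 arrays, 63 were used, and 3 were left out because their median correlation with the other arrays was under 0.9 (0.695 for a restricted male of 16 months, 0.701 for a restricted female of 16 months and 0.82 for a restricted female of 24 months), against 0.921 to 0.975 for the rest. On both arrays of 16 months, the probes at position 8 of each run of 22 in the probe list stood low, and the 7 zinc finger probes there averaged -2.6 and -2.59, against 0.463 on the arrays kept. Gene names stand for the probe as annotated, and there is a limit to that. Xist, the transcript of the inactive X chromosome, lay between -1.31 and -0.71 in females and between -1.39 and -0.67 in males, so its probe did not separate the sexes. The 9 zinc finger genes with 2 probes (Zfp110, Zfp277, Zfp410, Zfp592, Zfp638, Zfp706, Zfp954, Zfp961 and Zscan12) had probe means that lay 0.0235 (Zfp961) to 2.41 (Zfp638) apart. Depending on the comparison, both probes moved in the same direction in 2 to 6 of the 9 genes. Markers of the tissue were few on this filter: the Purkinje cell markers Calb1 and Car8 had mean Z scores of -0.015 and 0.841, and 0 of 12 listed granule cell markers and 0 of 12 oligodendrocyte markers were measured.

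Over the 63 arrays, 37 of the 84 genes (44%) had a mean Z score above 0, compared with 48.7% of all features. Mean Z scores ran from -2.76 for Zfp438 to 1.64 for Zfp212. The SD between mice of a group had a median of 0.158 over the zinc finger genes and of 0.167 over all features, and it was 0.15 for zinc finger genes above 0 and 0.186 for the others. The 6 genes with the largest spread over the mice were Zfp438 (SD 0.61), Zfp763 (0.449), Zfp652 (0.418), Klf7 (0.39), Zbtb45 (0.39) and Zfp61 (0.362). All 6 had mean Z scores between -2.76 and -1.72. The files give no background signal, so whether such spots were above background is unknown.

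**Figure D1:**
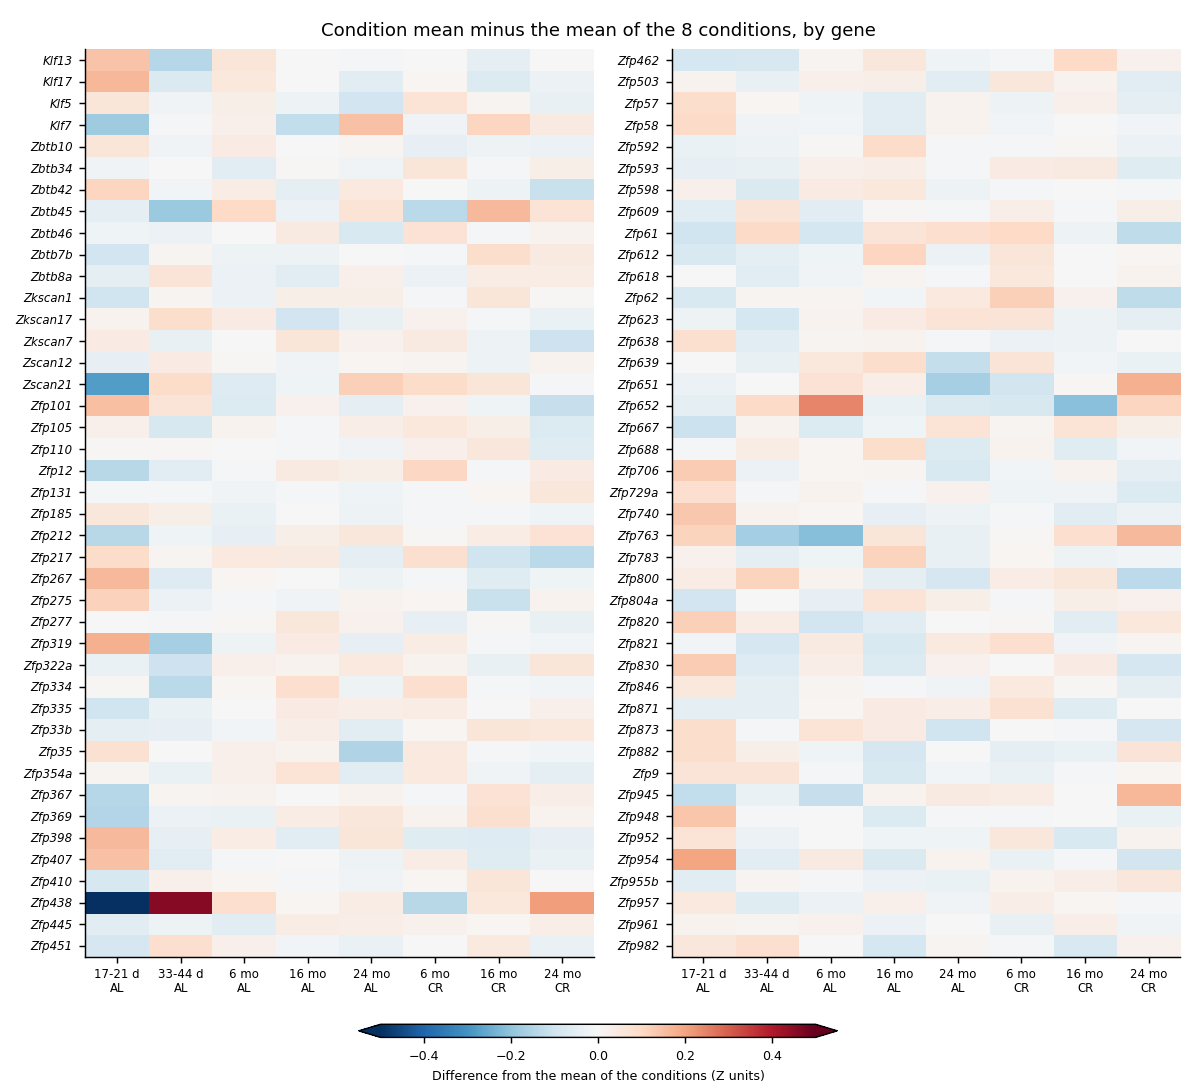
Mean Z score of each of the 84 zinc finger genes in the 8 conditions, minus the average of its 8 condition means (colour, in Z units; rows are genes, columns are age and diet). Most cells are pale, and the deepest colours belong to Zfp438, low at 17-21 days (mean -3.48) and high at 33-44 days (mean -2.32).

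No zinc finger gene changed between ages or diets at an adjusted p under 0.05. The limma model called 0 of the 84 genes in each of 13 comparisons, and the smallest adjusted p of any was 0.162. Among all features it called 24 (0.308%) for 33-44 days over 17-21 days and 32 (0.411%) for 6 months over 17-21 days, and 0 (0%) in the other 11 comparisons. The precision was limited: the 95% interval of a gene's difference reached 0.142 to 0.218 Z units to either side (medians over the genes, for 16 over 6 months AL and for the difference of diets in the change from 6 to 24 months). At an unadjusted p under 0.05, which 5% of genes would reach by chance (4.2 of 84), between 0 and 8 genes passed. Of all features, 0.655% to 13.4% did so, depending on the comparison. The medians of the 84 differences lay between -0.0288 and 0.02 Z units in the 13 comparisons, and those of all features between -0.00896 and 0.00492. Values for single genes below are therefore descriptions of the smallest p values in each comparison, and did not pass.

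**Figure D2:**
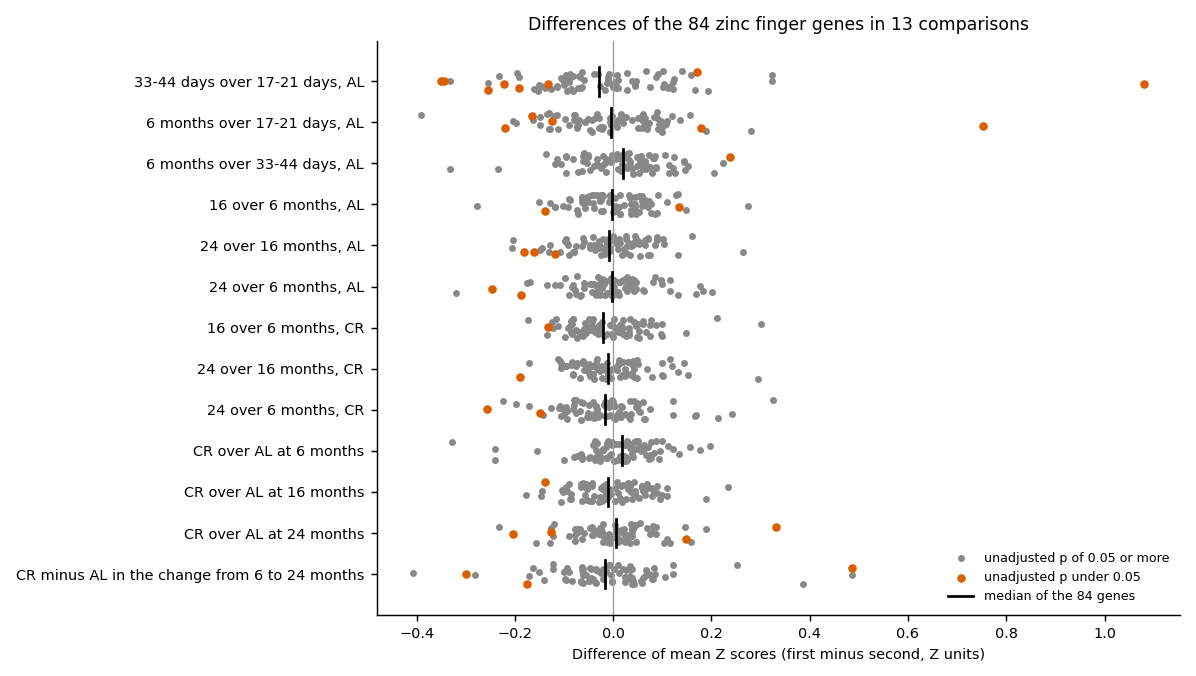
Difference of mean Z scores (first condition minus second, in Z units) for the 84 zinc finger genes in each of 13 comparisons, 1 point per gene, with the median as a bar and genes at an unadjusted p under 0.05 in orange. Points gather around 0 in every row, and the widest value is the 1.08 of Zfp438 between 17-21 and 33-44 days.

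The first question was whether these genes changed as the cerebellum matured after birth. From 17-21 to 33-44 days, 8 of 84 genes had an unadjusted p under 0.05 (9.52%), 2 higher and 6 lower at the later age, against 13.4% of all features. Klf13, a Krüppel-like factor that binds GC boxes, had the smallest p. At 17-21 days its Z scores were 0.75, 0.96 and 0.98 in females and 1.21 and 1.17 in males. At 33-44 days they were 0.21 and 0.82 in females and 0.76, 1.17 and 0.68 in males. The ranges overlapped, and 1 female of 40 days at 0.21 lay far below the other mice. With the sexes weighted equally, the difference was -0.351 (SE 0.113, 95% interval -0.578 to -0.124), with an unadjusted p of 0.00308 and an adjusted p of 0.162 in limma. Without that female it was -0.198, and the gene no longer passed the criteria of the study. The mice of both ages shared 3 of the 5 runs of array numbers (array sets). No mouse of 17-21 days was in set 5 and none of 33-44 days in set 3, so age and set are partly confounded. In the shared sets the differences of Klf13 were 0.01, 0.21 and -0.96, with females and males not matched within a set. At 6 months AL its Z scores ran from 0.47 to 1.2 with a median of 0.975, and the difference over 33-44 days was 0.238 (SE 0.0972, unadjusted p = 0.0176, adjusted p = 1). Without the same female, this difference was 0.086. From 6 months on, the means of Klf13 were between 0.826 and 0.931 in all 6 adult conditions, closer together than the SDs of 0.111 to 0.214 within them.

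Zfp438 had the largest difference of any zinc finger gene, and also the largest spread. At 17-21 days its Z scores were -3.56, -3.4 and -3.96 in females and -3.66 and -2.82 in males. At 33-44 days they were -3.14 and -1.95 in females and -2.39, -2.45 and -1.66 in males. Only the highest of the younger mice and the lowest of the older mice overlapped. The difference was 1.08 (SE 0.371, adjusted p = 0.204 in limma), and that of 6 months over 17-21 days was 0.752 (SE 0.319, adjusted p = 0.436). Adults of 6 months AL covered -3.7 to -1.58 with a median of -2.545, and thus the whole range of both juvenile groups except -3.96. Between the juvenile ages, the 3 shared array sets (runs of array numbers) gave Zfp438 differences of 1.17, 0.95 and -0.32, and with the set as a block the difference was 0.712. Against 6 months, the older mice were higher in all 4 sets that held both ages, by 0.135 to 1.32, but the difference was 1.2 in females alone and 0.304 in males alone.

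Zfp451, the SUMO ligase, was 0.22, 0.3 and 0.04 in females and 0.23 and 0.18 in males at 17-21 days, and 0.52 and 0.26 in females and 0.33, 0.24 and 0.46 in males at 33-44 days. Its difference was 0.171 (SE 0.0693, adjusted p = 0.284 in limma). Without the 40-day female, at 0.52 for Zfp451, it was 0.106, and Zfp451 was higher at the later age in 2 of 3 array sets. The ranges overlapped slightly, and both juvenile means (0.194 and 0.362) lay outside the range of the adult conditions, whose means were 0.243 to 0.324 (SDs 0.0695 to 0.126). The other genes at an unadjusted p under 0.05 were lower at 33-44 days: Zfp319 by -0.344, Klf17 by -0.254, Zfp407 by -0.223, Zfp706 by -0.191 and Zfp58 by -0.133. Sets 3 and 5 each held only 1 of the juvenile ages, the younger in set 3. Over all mice kept, the means of sets 3 and 5 were -0.654 and -0.973 for Zfp319 and -0.0915 and -0.348 for Klf17. They were 0.221 and -0.00667 for Zfp407, -0.362 and -0.561 for Zfp706 and 0.915 and 0.845 for Zfp58. Age and set cannot be fully told apart here. Zfp58 was 0.98, 0.91 and 0.93 in females and 1.09 and 1.09 in males at 17-21 days. At 33-44 days it was 0.81 and 0.91 in females and 0.82, 1.05 and 0.84 in males, and at 6 months AL it ran from 0.73 to 1.08. For the 6 months over 17-21 days, 5 genes (5.95%) had an unadjusted p under 0.05, against 10.7% of all features. Beside Zfp438 these were Zfp820 (-0.221), Zfp948 (-0.166), Zfp58 (-0.124) and Zfp367 (0.178). In the 4 shared array sets, Zfp820 was lower in all 4 and Zfp948 in 2. For 6 months over 33-44 days only Klf13 was at an unadjusted p under 0.05 (1.19%, against 1.72% of all features). Zfp334 (0.145, unadjusted p = 0.0797) and Zfp609 (-0.118, unadjusted p = 0.119) followed. Zfp334 was at 0.08 without the 40-day female, and Zfp609 at -0.0707 without the other female of 33-44 days.

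Calls against 17-21 days depended on a single array. Zfp367 was 0.19, 0.28 and 0.23 in the females, and -0.31 and 0.42 in the males of that age. The male at -0.31 had the lowest median correlation of the arrays kept (0.921). Zbtb7b, the factor known as ThPOK that directs T cells to the CD4 lineage, showed the same split, with -0.22, -0.15 and -0.14 in females and -0.68 and -0.01 in males. Leaving out the other male, so that this array stood for the males alone, brought 3 zinc finger genes (Zfp367, Zbtb7b and Zfp438) past an adjusted p of 0.05 for 33-44 over 17-21 days, at a time when 8.07% of all features passed. For 6 months over 17-21 days, 2 genes (Zfp367 and Zbtb7b) then passed, with 7.35% of all features.

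The next question was whether these genes changed with age in adult mice fed ad libitum. For 16 over 6 months, 2 genes (2.38%) had an unadjusted p under 0.05, 1 in each direction, compared with 1.34% of all features. Zkscan17, a SCAN and KRAB protein known to bind the histone methyltransferase Nsd1, lay between -0.19 and 0.47 at 6 months (median 0.125), between -0.14 and 0.12 at 16 months (median -0.035) and between -0.11 and 0.2 at 24 months (median 0.09). The range at 16 months lay inside that at 6 months. Its difference was -0.138 (SE 0.0511, unadjusted p = 0.00931, adjusted p = 1 in limma), and -0.0988 without the female at 0.47. The gene was lower at 16 months in 4 of 5 array sets. Zfp783, which RefSeq lists as a long non-coding RNA, was between -0.7 and -0.5 at 6 months and between -0.65 and -0.09 in the mice of 16 months, a difference of 0.134 (SE 0.0596, adjusted p = 1). Without 1 male of 16 months this was 0.094. Zfp612 (0.128, unadjusted p = 0.0532) was next.

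For 24 over 16 months AL, 3 genes (3.57%, against 3.92% of all features) were at an unadjusted p under 0.05, all lower in the older mice, and for 24 over 6 months there were 2 (2.38%, against 2.49%), both lower. Zfp35 was in both counts, and these comparisons share the mice of 24 months. Its Z scores covered -1.31 to -0.89 at 6 months (median -1.07), -1.3 to -0.83 at 16 months (median -1.09) and -1.5 to -1.04 at 24 months (median -1.35). The groups overlapped, with 1 male of 24 months at the bottom. Its difference was -0.182 over 16 months (SE 0.062) and -0.187 over 6 months (SE 0.062, unadjusted p = 0.00399, adjusted p = 1 in limma). Set by set, it was lower at 24 than at 6 months in all 5 array sets, by 0.035 to 0.23, whereas against 16 months it was lower in 3 sets and higher in 2. The difference over 6 months was -0.323 in males and -0.05 in females, and whether the sexes differed was not tested. Zfp651 was the other gene for 24 over 6 months (-0.246, SE 0.112), with values of -2.39 to -1.84 at 6 months against -3.19 to -1.92 in the older mice. A single male at -3.19 carried part of this, and without it the difference was -0.115. For 24 over 16 months the other genes were Zfp783 (-0.162), whose means from the youngest to the oldest AL adults were -0.596, -0.462 and -0.613, and Zfp354a (-0.118), which was lower in all 5 sets. The difference of Zfp783 was -0.308 in males and -0.016 in females, and the AL mice of 16 months also entered its comparison with 6 months. Zfp652 came next for 24 over 6 months (-0.319, unadjusted p = 0.0939), and rested on 1 male of 6 months at 0.9, all other mice of that group lying at -1.18 or below. Without this male its difference was -0.0503.

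**Figure D3:**
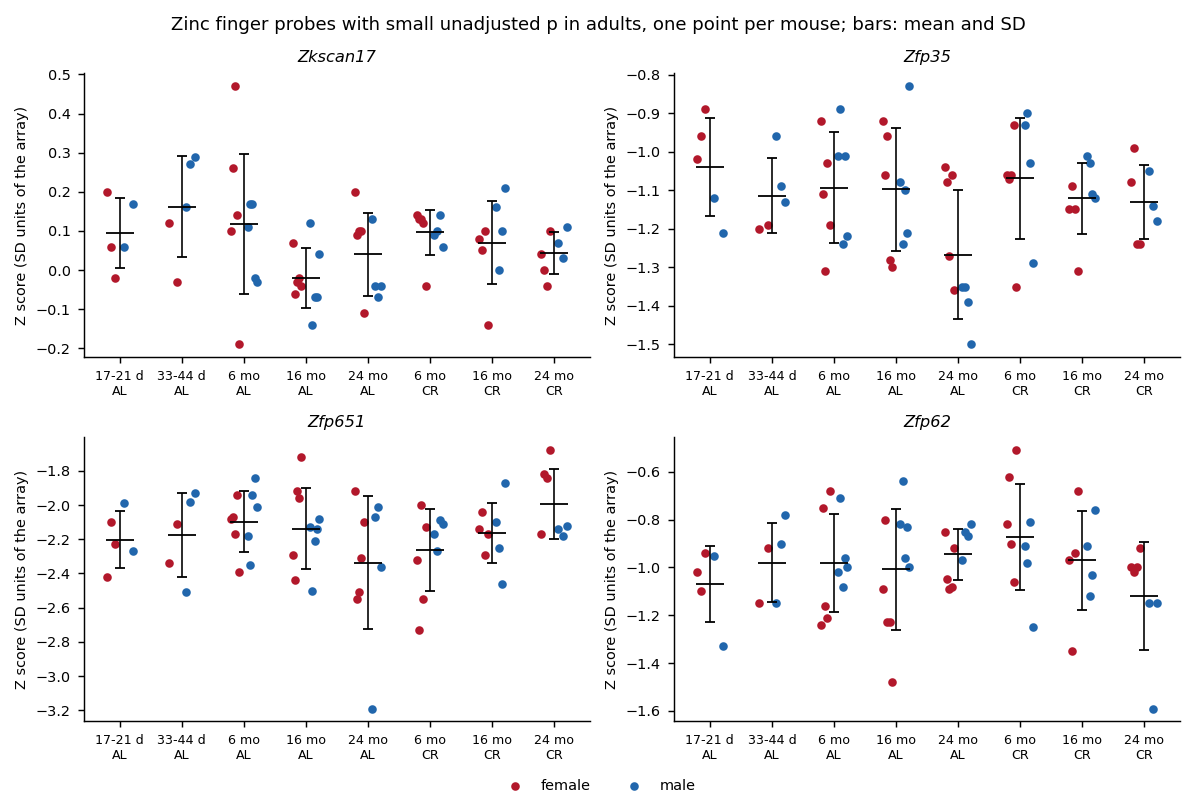
Z scores (SD units of the array) of Zkscan17, Zfp35, Zfp651 and Zfp62 in each mouse by age and diet, females in red and males in blue, with the mean and SD of each condition as bars. The conditions overlap in all 4 panels, and single mice stand apart at -3.19 (Zfp651) and -1.59 (Zfp62).

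The same ages were compared in restricted mice. For 16 over 6 months CR, 1 gene (1.19%, against 2.13% of all features) was at an unadjusted p under 0.05. This was Zfp952, which covered 0.13 to 0.29 at 6 months (median 0.26), -0.07 to 0.26 at 16 months (median 0.11) and 0.02 to 0.29 at 24 months (median 0.27). Its difference was -0.132 (SE 0.0504, adjusted p = 1 in limma), in the same direction in all 4 array sets with both ages. Its probe is at position 8, and with both faulty arrays of 16 months included the difference became -0.64. Zfp217 (-0.174, unadjusted p = 0.0732) and Zbtb45 (0.3, unadjusted p = 0.109) followed. Zfp217 was at -0.0991 without 1 female of 16 months and at -0.115 with the set as a block, and Zbtb45 at 0.199 without 1 female of 6 months. For 24 over 16 months CR there was 1 gene (1.19%, against 2.51%), Zfp800 (-0.19, SE 0.0873), with Zfp593 (-0.107, and -0.0633 without 1 female of 24 months) and Zfp952 (0.0996) next.

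For 24 over 6 months CR, 2 genes (2.38%, against 1.12% of all features) were at an unadjusted p under 0.05, both lower. Zfp62 covered -1.25 to -0.51 at 6 months (median -0.9), -1.35 to -0.68 at 16 months (median -0.955) and -1.59 to -0.92 at 24 months (median -1.02). The groups overlapped, and the lowest mouse at 24 months was a male at -1.59. The difference was -0.256 (SE 0.0944, unadjusted p = 0.00903, adjusted p = 1 in limma), and -0.183 without that male. Zkscan7, a SCAN and KRAB protein, went from a range of -0.41 to -0.23 at 6 months to one of -0.66 to -0.21 at 24 months, a difference of -0.148 (SE 0.0596, adjusted p = 1). Both were lower in 4 of 5 array sets. Zfp800 followed (-0.171, unadjusted p = 0.0506) and was lower in all 5.

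Restricted mice were then set against AL mice of the same age. At 6 months, 0 of 84 genes were at an unadjusted p under 0.05 (0.655% of all features were). The smallest p belonged to Zfp652 (-0.329, unadjusted p = 0.0839), through the same male at 0.9, followed by Zbtb34 (0.121) and Zbtb10 (-0.079). Without 1 restricted male these were 0.054 and -0.0523. At 16 months there was 1 gene (1.19%, against 2.13%), Zfp783, which ran from -0.65 to -0.09 in AL and from -0.86 to -0.45 in CR mice. Its difference was -0.139 (SE 0.0632, adjusted p = 1 in limma), and -0.0993 without 1 AL male. The same AL mice of 16 months entered both comparisons of Zfp783 with age above. Zfp688 (-0.147, unadjusted p = 0.0557) and Zbtb7b (0.11, unadjusted p = 0.0948, and 0.0594 without 1 restricted female) were next. The difference of Zfp688 was 0.02 in females alone and -0.313 in males alone.

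At 24 months, 4 genes (4.76%, against 2.25% of all features) were at an unadjusted p under 0.05. The differences of Zfp651 and Zfp35 were positive (higher in restricted mice), and those of Zfp62 and Zkscan7 negative. Zfp651 ran from -3.19 to -1.92 in AL (median -2.31) and from -2.18 to -1.68 in CR mice (median -2.12), so that 5 of the 9 AL mice lay below every CR mouse. Its mean Z score over the arrays kept was -2.17, as low as those of the most variable genes. Whether its spot was above background is likewise unknown. Its difference was 0.331 (SE 0.123, 95% interval 0.0832 to 0.578, unadjusted p = 0.00979, adjusted p = 0.999 in limma), and 0.2 without the male at -3.19. It was higher in CR mice in all 5 array sets, by 0.18 to 0.55. Sex and age were not matched in every set. At this age, set 2 kept 1 restricted male of 673 days and 1 AL female of 714 days. In sets 3 and 5, restricted females alone stood against AL mice of both sexes. For Zfp35 the difference was 0.149 (SE 0.0684), with 0.274 in males and 0.0245 in females. Zfp62 lay between -1.09 and -0.82 in AL mice and between -1.59 and -0.92 in CR mice, a difference of -0.203 (SE 0.0944) that was -0.13 without the male at -1.59. All 3 restricted males, at -1.15, -1.59 and -1.15, were below every AL mouse of that age. In females alone the difference of Zfp62 was 0.013, and in males -0.419. For Zkscan7 the difference was -0.126.

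Whether the change from 6 to 24 months differed between diets was tested with an interaction term. There were 3 genes (3.57%, against 0.9% of all features) at an unadjusted p under 0.05, and 0 at an adjusted p under 0.05. Zfp651 differed by -0.246 between these ages in AL mice, and the difference between diets in this change was 0.487 (SE 0.167, unadjusted p = 0.00511, adjusted p = 1 in limma). This difference of differences was positive in all 5 array sets, from 0.46 to 0.66, with sex and age not matched in every set. It was 0.356 without the AL male at -3.19. For Zfp62 it was -0.299 (SE 0.127) and for Zkscan7 -0.176 (SE 0.0804). The interaction is built from the same mice as the single comparisons above and adds no separate evidence.

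The thresholds of the study were also applied, with the limma p and without the two-way ANOVA that followed in the study, namely a Z-ratio (the difference divided by the SD of all differences) of 1.5 or more up or down, together with a mean Z above 0 and an unadjusted p under 0.05. They were met by Klf13 for 33-44 over 17-21 days (with 4.11% of all features) and for 6 months over 33-44 days (0.411%), by Zkscan17 for 16 over 6 months AL (0.116%) and by Zfp952 for 16 over 6 months CR (0.45%). These 4 cases are all that passed in 13 comparisons of 84 genes. In the other comparisons 0 of the 84 genes passed, against 4.09% of all features for 6 months over 17-21 days. With age in AL mice the share of features was 0.771% for 24 over 16 months and 0.475% for 24 over 6 months, and in CR mice it was 0.424% and 0.09%. For diet the shares, from the youngest to the oldest adults, were 0.0257%, 0.668% and 0.308%, and that for the interaction was 0.0643%. Klf13 no longer passed in either comparison without the 40-day female at 0.21, and in the later one also without 1 male of 33-44 days. Zkscan17 no longer passed without the 6-month female at 0.47. Zfp952 no longer passed when any 1 of 6 of the 17 mice compared was left out, nor with the array set as a block, with the correction by position in the probe list or with all 66 arrays. With all 66 arrays, Klf13 no longer passed for 6 months over 33-44 days either.

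Among the Klf genes, Klf5, a factor of proliferating epithelia and smooth muscle, Klf7, known for axon outgrowth in developing neurons, and Klf17, first known from germ cells, were measured beside Klf13. Klf17 was -0.1, -0.2 and 0.06 in females and 0.2 and 0.03 in males at 17-21 days, and -0.25 and -0.19 in females and -0.34, 0.03 and -0.45 in males at 33-44 days. The groups overlapped, with 1 older male as high as the median of the younger mice, and the difference was -0.254 (SE 0.105, adjusted p = 0.294 in limma). In the 3 shared array sets the older mouse was at -0.34 against -0.1, at 0.03 against -0.2 and at -0.25 against 0.03. Over all mice kept, the mean of Klf17 was lowest in set 5 (-0.348), which held mice of 33-44 days but none of 17-21 days. In adults Klf17 had means from -0.236 to -0.112. Klf5 had means from -0.393 (24 months AL) to -0.229 (6 months CR), with SDs of 0.126 to 0.25 within conditions. Klf7 had means from -2.41 (17-21 days) to -2.08 (24 months AL), and a female of 16 months AL at -3.57 was its lowest value. For neither Klf5 nor Klf7 did neighbouring conditions differ beyond the spread within conditions, which includes differences between array sets (given further on).

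**Figure D4:**
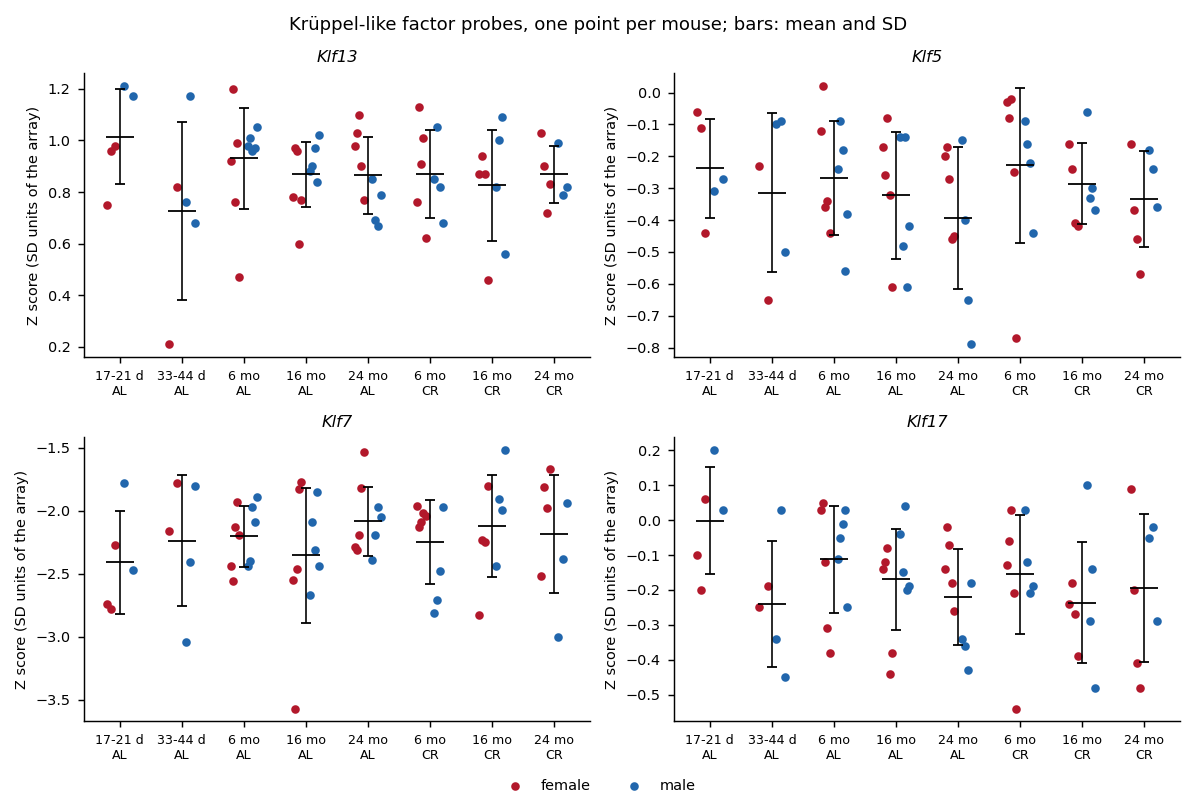
Z scores (SD units of the array) of Klf13, Klf5, Klf7 and Klf17 in each mouse by age and diet, females in red and males in blue, with the mean and SD of each condition as bars. The lowest Klf13 value, 0.21, is a female of 33-44 days, and the conditions overlap in every panel.

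Genes with a known role in brain or in imprinting were described across the same conditions. Zscan21 was -1.89, -2.65 and -2.13 in females and -1.87 and -2.01 in males at 17-21 days, and -1.98 and -1.74 in females and -1.92, -1.56 and -1.49 in males at 33-44 days. The difference was 0.323 (SE 0.215, unadjusted p = 0.138 in limma), smaller than the range of either group. Zfp57 and Zfp445, which protect imprinted regions from loss of methylation through Trim28, had means of 0.299 to 0.438 and of 0.204 to 0.296. Their smallest unadjusted p values in the 13 comparisons were 0.286 and 0.222. Zfp110 and Zfp369, which bind the neurotrophin receptor p75, had means of -0.132 to -0.0156 and of -0.874 to -0.649, with smallest unadjusted p values of 0.0739 and 0.345. For the most variable genes not yet described, Zfp763, Zbtb45 and Zfp61, these were 0.12, 0.109 and 0.0905.

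The partners of these factors were looked at in the same way. Of 18 genes listed as partners of KRAB proteins, 10 were measured, and 0 were called in any comparison. Setdb1 had a difference of 0.253 (SE 0.109) and Hdac1, a histone deacetylase, one of -0.172 (SE 0.0684) for 33-44 over 17-21 days, at adjusted p values of 0.316 and 0.274. Trim28 itself had a difference of 0.0158 (SE 0.0986). Of 14 partners of BTB and SCAN proteins, 6 were measured and 0 called, and Sin3b (0.207, SE 0.0898, 16 over 6 months CR) was the single gene at an unadjusted p under 0.05. In that comparison 2.13% of all features were. Of 72 other C2H2 factors, 20 were measured and 0 called. For 33-44 over 17-21 days, 2 of these were higher and 3 lower at an unadjusted p under 0.05 in limma, which 13.4% of all features reached. Among them were Sall2 (0.401, SE 0.132, adjusted p = 0.175), Rest, the repressor of neuronal genes (0.282), Sp1 (-0.328), Egr1, an early response gene of active neurons (-0.288), and Prdm16 (-0.251). The median difference in that comparison was -0.0188 for the KRAB partners and -0.00542 for the other C2H2 factors, against -0.00896 for all features.

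Markers of cell types stood beside these results as follows. For 33-44 over 17-21 days, Car8 had a difference of 0.307 and Calb1 of -0.171, so the 2 measured Purkinje cell markers went opposite ways. Ccnd2, a cyclin of dividing granule cell precursors, had a difference of 0.163, while the median over the 6 measured precursor markers was -0.0117. Their summed Z score ranged from -0.177 to 0.522 at 17-21 days and from -0.329 to 0.448 at 33-44 days. None of these markers was called. Alas2, a marker of red cell precursors, had a difference of -0.209 for 24 over 6 months CR, where the sum of 4 blood markers lay between -1.6 and -0.396 in the younger and between -1.84 and -0.811 in the older mice. The median difference of these 4 was -0.0801 there and -0.142 for 24 over 16 months CR. Of 4 choroid plexus and meninges markers, 1 was lower at an unadjusted p under 0.05 in limma for 24 over 6 months CR. The same count held for CR over AL at 24 months. Of all features, 1.12% and 2.25% were at such a p in these comparisons, in either direction. The part of cell makeup in the values of the zinc finger genes was not tested.

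The values of the zinc finger genes also differed between runs of array numbers. The labels number the arrays, and the numbers fall into 5 sets (14, 10, 13, 14 and 12 arrays kept), none of which holds more than 1 mouse of the same sex, age and diet. Not every set held both sexes of a condition, so the differences within sets given above can also hold a difference between sexes. In a limma fit with group and set together, chosen after the data were seen, 45 of the 84 genes (53.6%) differed between sets at an adjusted p under 0.05, close to the 55.6% of all features that did. Of these 45, 23 had a lower and 21 a higher mean in set 5 than in set 1, and Zfp61 was at -1.78 in both. The range of the 5 set means had a median of 0.204, whereas the range of the 8 condition means had a median of 0.17, and the former was the larger in 52 of the 84 genes. Klf5 had means of -0.133, -0.166, -0.258, -0.404 and -0.531 in sets 1 to 5 (adjusted p = 2.82e-07). Klf7 went the other way, from -2.58 in set 1 to -1.87 in set 5 (adjusted p = 8.2e-06). Zfp948 lay at -0.171 in set 2 and -0.445 in set 5 (adjusted p = 9.16e-07), and Zfp462, linked to heterochromatin, at -0.895 and -0.528 (adjusted p = 2.82e-06). Zfp954, averaged over 2 probes, lay at -0.224 and -0.775 (adjusted p = 6.29e-06). Among the genes of the adult comparisons, Zfp35 went from -1.04 in set 1 to -1.23 in set 5 (adjusted p = 0.0304), and Zkscan17 from 0.119 to 0.00167 (adjusted p = 0.167). With the set as a block, 0 of 84 genes were called in any of the 13 comparisons, and the difference of Klf13 between juvenile ages became -0.284, that of Zfp35 for 24 over 6 months -0.182 and the interaction of Zfp651 0.507. The methods of the study state that tissue was handled in balanced batches, without tying these to array numbers.

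**Figure D5:**
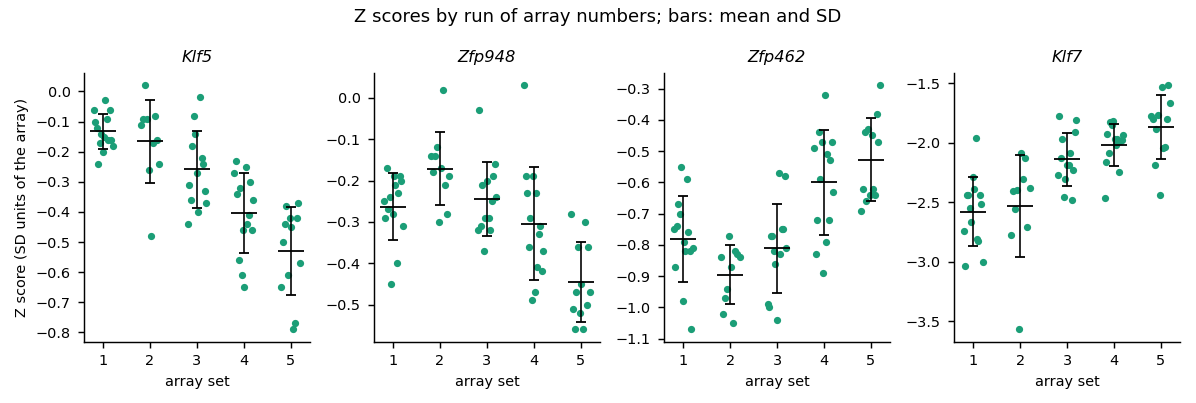
Z scores (SD units of the array) of Klf5, Zfp948, Zfp462 and Klf7 in the 63 mice by array set, the 5 runs of array numbers, with the mean and SD of each set as bars. Klf5 falls from a mean of -0.133 to -0.531 and Klf7 rises from -2.58 to -1.87 between sets 1 and 5.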

How the data were processed

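Per the labels, the authors labelled total RNA of each mouse with 33P-dCTP by reverse transcription (the paper's methods name another phosphorus isotope and a PCR reaction). They hybridized it to nylon cDNA filters, quantified the spots from phosphor images, and deposited a Z score for each probe and array. No source used here says whether logarithms were taken or what was done about background. The deposited scores had 2 decimals and 0 missing values. The B filter carried 8448 probes, of which 4875 had 1 symbol, 224 several and 3349 none. The array numbers in the labels of the 66 arrays run to 67 and do not include 27.

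Probes of a gene were averaged, and 1 mean per group of sex, age and diet (16 groups) was fitted to 63 arrays, the sexes weighted equally, by limma 3.58.1 under R 4.3.3 with moderated variances (47 residual degrees of freedom). A difference can therefore depart from the gap between pooled means. P values were two-sided and adjusted over all 7782 features by Benjamini-Hochberg. The p values set each difference against the spread between mice of a group, pooled over the 16 groups, with each mouse on a single array. How many arrays there were limits the precision. Each mouse of a group was in a different array set and this fit had no term for the set. The spread therefore includes differences between sets. A difference between conditions can include them too, where the conditions were spread unevenly over the sets. No mouse of 17-21 days was in set 5 and none of 33-44 days in set 3. Age and set are therefore partly confounded in comparisons of the juvenile mice. The scripts were tested on simulated data.

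Members, gene lists and tests were chosen with earlier results of these data known. Named are the 3 members with the smallest p where none was called, those past the criteria of the study, all Klf members, the 6 with the largest SD and those with 2 probes. Other genes were named for a known role, or after their values were seen (Zbtb7b, Zfp367, and the genes named for array sets). Alternatives were all 66 arrays, features with a mean Z above 0, quantile normalization, a correction by position in the probe list, array set as a block, array weights, robust and trended variances, each sex alone, the compared groups alone, each probe alone and leaving out each mouse. RefSeq gene IDs (GRCm38.p6) matched all 84 members, 83 of them protein coding and 1 a lncRNA, with 0 differing symbols. Sequences and neighbours were taken from those tables.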

Additional observations from a re-analysis of the deposited data

Results flagged for a closer look

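The values of genes named above, by condition, and the correlation between arrays, by group, were examined for a mouse far from the others by Dixon's criterion (227 groups of 4 to 10 values). In 18 of them a mouse stood apart, where chance alone would give about 1 in 20, or 11.4. These counts cannot be compared, since some genes were named for a large SD or a small p, which 1 mouse can produce. Also, 3 of the 18 are the correlations for which arrays were left out. In mice fed ad libitum, these were Klf7 at -3.57, Zfp438 at -3.72, Zfp763 at -1.09 and Zbtb45 at -2.87 in 16-month females. They were Zfp57 at -0.25 in a 6-month female, Zfp652 at 0.9 in a 6-month male and Zfp651 at -3.19 in a 24-month male. At the juvenile ages, Zfp367 was 0.61 in a female of 40 days and Zfp763 -1.07 in a male of 19 days, the male whose array had the lowest correlation among those kept. In restricted mice, a 6-month female of 190 days stood apart in 3 genes, with Klf17 at -0.54, Zkscan17 at -0.04 and Zfp445 at 0.72. Zfp763 was -1.13 in another 6-month female, Zfp35 -1.31 in a 16-month female and Zfp62 -1.59 in a 24-month male. The median correlation with other arrays was 0.695 for a restricted 16-month male, 0.701 for a restricted 16-month female and 0.82 for a restricted 24-month female, each far below the other 4 arrays of its group.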

How the results depend on the processing

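Of the 13 counts of called genes, all at 0, 10 stayed at 0 under every alternative that kept the adjusted p as the threshold. Leaving out 1 mouse at a time gave 0 to 3 called genes for 33-44 over 17-21 days and 0 to 2 for 6 months over 17-21 days, each time without the 17-day male only. Array weights, whose fit did not converge fully, gave 1 called gene for 6 months over 33-44 days, Klf13 (0.325, adjusted p = 0.0436, 0.09% of features called), against an adjusted p of 0.247 to 1 when mice were left out. By the criteria of the study the counts were 1 for 33-44 over 17-21 days, 1 for 6 months over 33-44 days, 1 for 16 over 6 months AL and 1 for 16 over 6 months CR. The sum over comparisons, 4, became 14 with all 66 arrays and 10 where the set was a block, and 2 to 9 when mice were left out (2 without the 40-day female, 9 without 1 female of 6 months AL). With all 66 arrays, 12 of the 14 were Zfp354a, Zfp729a, Zfp882 and Zkscan1, whose probes are at position 8. Of the named differences, 2 changed direction in females alone, Zfp688 for diet at 16 months (0.02) and Zfp62 for diet at 24 months (0.013), and the cause was not tested. The labels carry no replicate numbers, but the array sets, which hold at most 1 mouse of a group, allow a block, and that fit called 0 zinc finger genes in each of the 13 comparisons.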
